A study of Oryza sativa with 4 samples.

Results

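The 8 genes described here encode enzymes of lignin synthesis: PAL1, C4H, the 4-coumarate:CoA ligases 4CL1 to 4CL5, and CAD2. They were chosen by locus ID, for their enzymes, and are 8 of the 55986 genes in the table. RNA of whole rice paleas was sequenced in bulk; the palea is the bract that faces the lemma and closes the hull around the flower.

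The libraries were labelled Osmads6 (a Tos17 retrotransposon insertion line, background given as Nipponbare), Osmads32 (a T-DNA insertion line, background given as AF36), rep1 (a deletion line) and wild type, both in japonica rice. Plants were grown in a paddy field and were not treated; the labels give neither the developmental stage nor whether each mutant is 1 line or several. Genotype and background cannot be told apart. GEO lists 1 sample per genotype, while the table holds 2 columns for each. The column headers only number them and do not say whether they are runs of 1 library or separate preparations. They were taken as 2 runs of 1 sample and are called runs below, so that no test between genotypes was made. Values are FPKM (fragments per kilobase of transcript, scaled to depth), which are comparable between genes. A pair of values is run 1 and run 2 and shows the spread of the runs only, and none of the differences has a replicate check.

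Lignin is the phenolic polymer that stiffens and waterproofs secondary cell walls, and in the rice hull it helps to harden the lemma and palea. PAL opens the pathway by removing ammonia from phenylalanine, C4H hydroxylates the cinnamic acid that results, and 4CL joins the product to coenzyme A. Reductases, hydroxylases and methyltransferases then shape the ring and side chain, and CAD makes the last reduction to the monolignols that are polymerised in the wall. The early steps also feed flavonoids and other phenolics.

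Recovered reads summed to between 39884628 and 60138704 per run. Reads of a gene are known only up to a factor common to its runs, so these sums are not exact depths. OsMADS6 did not follow its label: it stood at 124 and 130 FPKM in the library labelled Osmads6, against 12.5 and 14.4 FPKM in the library labelled wild type, where it was lowest. OsMADS32 stood at 8.69 and 7.95 FPKM in its own labelled mutant, against 6.63 and 7.75 FPKM in the library labelled wild type. OsMADS32 was lowest in the library labelled rep1, at 3.11 and 2.44 FPKM, and highest in that labelled Osmads6, at 14.6 and 15.3 FPKM. REP1 was below 1 FPKM in all 8 runs. Every direction below rests on the labels as given. The lemma and palea markers OsMADS1, OsMADS14, OsMADS15 and OsMADS6 were all above 1 FPKM in every run.

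The members spanned the whole range of expression. PAL1 (LOC_Os02g41630, chromosome 2), the entry enzyme, averaged 2465 FPKM over the 4 genotypes and ranked 5 among all genes of the table. The 4CL isoforms ran from 382 FPKM for 4CL3 to 0.417 FPKM for 4CL2. A mean of at least 1 FPKM was reached by 7 of the 8 members, 4CL2 being the exception.

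In 6 of the 8 members, the order of levels was the same: highest in the library labelled rep1, then Osmads32, then wild type, and lowest in the library labelled Osmads6. The 6 are PAL1, C4H, 4CL1, 4CL3, 4CL4 and CAD2, and the ratio of their highest to their lowest genotype ran from 2.57 for 4CL4 to 13.5 for 4CL3. The runs of neighbours in this order did not overlap for any of the 6 between rep1 and Osmads32, where 73.8% of all genes with a mean of 1 FPKM or more were apart, nor between Osmads6 and wild type, where 67.1% were. Between Osmads32 and wild type they overlapped for C4H and 4CL3, and 51.4% of all genes were apart. Without wild type run 2 these 2 genes turned to the other side there, with log2 ratios of -0.12 and -0.24. C4H also turned without Osmads32 run 1, at -0.03. 4CL5 ran in another order, highest in the library labelled Osmads6 and lowest in the library labelled rep1. In bulk tissue, fewer cells that make lignin and less transcript per cell cannot be told apart.

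**Figure D1:**
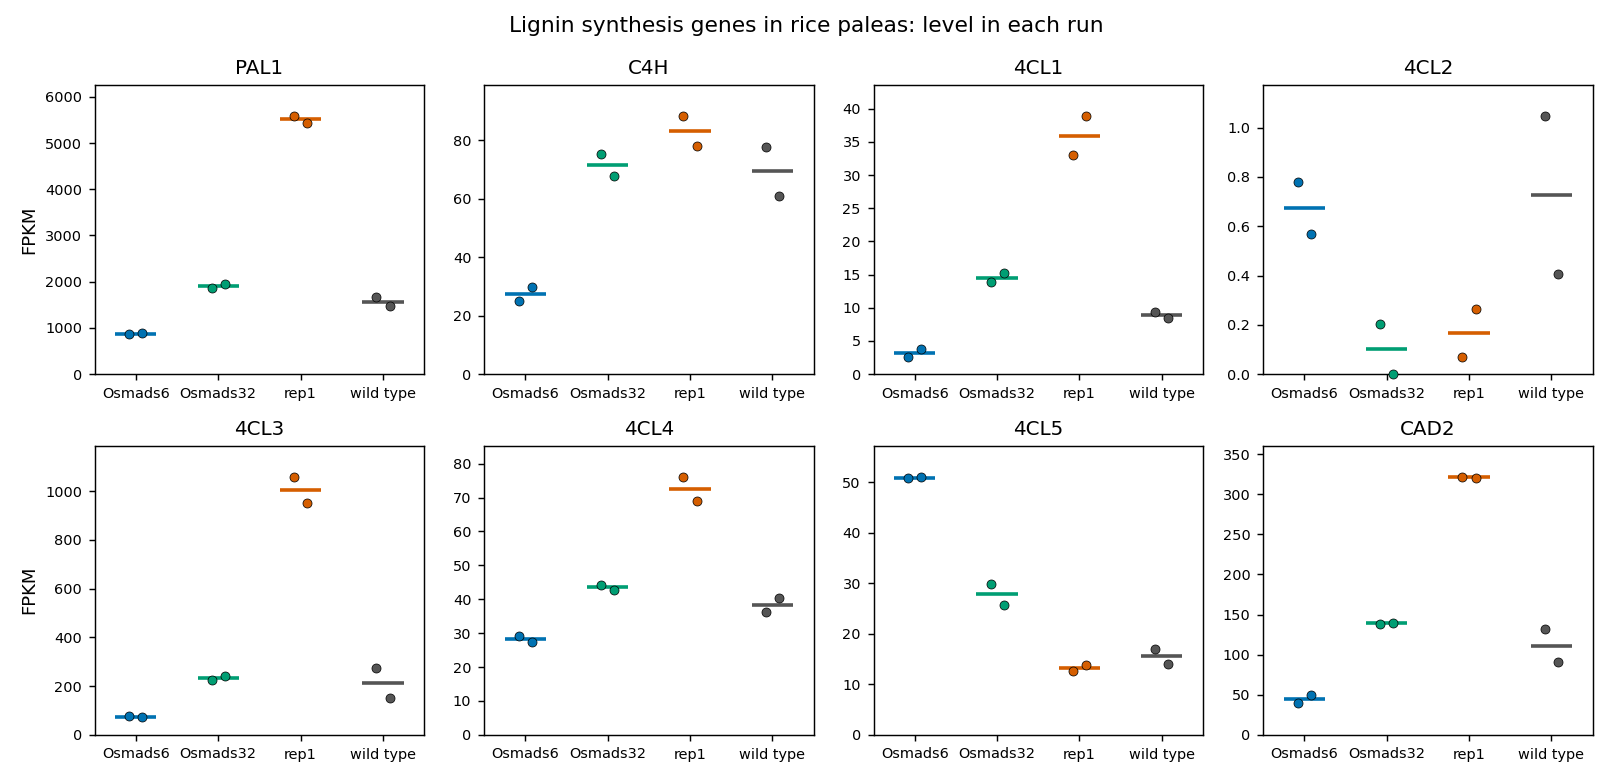
Level of each of the 8 genes in FPKM (linear axes from 0, each with its own scale) in the libraries labelled Osmads6, Osmads32, rep1 and wild type; dots are the 2 runs and the short line is their mean. In 6 genes the rep1 dots are highest and the Osmads6 dots lowest, while 4CL5 is highest in Osmads6, at 50.8 and 51.1 FPKM.

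PAL1 stood at 866 and 887 FPKM in the library labelled Osmads6, at 1854 and 1949.9 FPKM in that labelled Osmads32, at 5587 and 5442 FPKM in that labelled rep1, and at 1663 and 1473 FPKM in that labelled wild type. The genotypes did not overlap between runs. Mean PAL1 was 3.52-fold higher in the library labelled rep1 than in that labelled wild type. It was 1.79-fold lower in the library labelled Osmads6 than in wild type, short of 2-fold.

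C4H (LOC_Os05g25640, chromosome 5), the cytochrome P450 of the next step, stood at 25.2 and 30.0 FPKM in the library labelled Osmads6. It stood at 75.2 and 67.9 FPKM in Osmads32, 88.4 and 78.0 FPKM in that labelled rep1, and 77.8 and 61.1 FPKM in that labelled wild type. C4H was past 2-fold from wild type in the library labelled Osmads6 alone, where its mean was 2.52-fold lower. It was 1.20-fold above wild type in the library labelled rep1, and the lower rep1 run exceeded the higher wild type run by less than 1 FPKM. The level of PAL1 was 63.2 and 69.8 times that of C4H in the rep1 runs, against 21.4 and 24.1 times in the wild type runs. PAL1 was 34.4 and 29.6 times C4H in Osmads6, and 24.7 and 28.7 times in Osmads32.

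The 4CL family held both the widest rise and the member that ran the other way. 4CL3 (LOC_Os02g08100, chromosome 2), the isoform tied to lignin in rice, stood at 76.6 and 72.8 FPKM in the library labelled Osmads6 and at 227 and 241 FPKM in Osmads32. It stood at 1059.6 and 952 FPKM in the library labelled rep1 and at 276 and 149.8 FPKM in that labelled wild type. The wild type runs differed by 1.84-fold, the widest spread of a wild type pair among the 7 members past 1 FPKM, and enclosed both Osmads32 values. Mean 4CL3 was 4.72-fold higher in rep1 and 2.85-fold lower in Osmads6 than in wild type. Without wild type run 1 the Osmads6 difference, -1.50 on the log2(FPKM + 1) scale, became -0.995, just short of 2-fold.

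4CL1 (LOC_Os08g14760, chromosome 8) stood at 2.65 and 3.83 FPKM in the library labelled Osmads6, 13.8 and 15.2 FPKM in that labelled Osmads32, 33.0 and 38.9 FPKM in that labelled rep1, and 9.35 and 8.50 FPKM in that labelled wild type. It was 4.03-fold higher in rep1, 1.63-fold higher in Osmads32 and 2.76-fold lower in Osmads6 than in wild type. 4CL4 (LOC_Os06g44620, chromosome 6), also known as RAL1, from aluminium resistance, moved least of the 6. It stood at 29.1 and 27.3 FPKM in the library labelled Osmads6, 44.2 and 42.8 FPKM in that labelled Osmads32, 76.1 and 68.9 FPKM in that labelled rep1, and 36.2 and 40.4 FPKM in that labelled wild type. Its differences from wild type stayed under 2-fold in all 3 mutant libraries, although runs did not overlap; under median-ratio scaling its log2 ratio in rep1 was 1.052.

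4CL5 (LOC_Os08g34790, chromosome 8) stood at 50.8 and 51.1 FPKM in the library labelled Osmads6, 29.8 and 25.8 FPKM in that labelled Osmads32, 12.7 and 13.8 FPKM in that labelled rep1, and 16.9 and 14.1 FPKM in that labelled wild type. It was 3.28-fold higher in Osmads6 and 1.79-fold higher in Osmads32 than in wild type. In rep1 it was 1.17-fold lower, with the higher rep1 run just under the lower wild type run. 4CL2 (LOC_Os02g46970, chromosome 2) was low, with 65 and 52 reads in Osmads6 and 127 and 44 reads in wild type. It came nearest the limit of detection in Osmads32, with 20 and 0 reads, and in rep1, with 6 and 22 reads. The 0 allows up to 0.0312 FPKM at 3 reads, counting error only. Its runs of 1 genotype differed by up to 3.88-fold where both were above 0, and no fold is given for it here. It stays in the counts and medians over 8 members below, and medians without it are set beside them.

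The makeup of the summed 4CL transcripts differed between genotypes accordingly. The 5 isoforms summed to 158 FPKM in the library labelled Osmads6, 319.6 FPKM in that labelled Osmads32, 1128 FPKM in that labelled rep1 and 277 FPKM in that labelled wild type. 4CL3 made up 47.9% and 46.8% of the sum in Osmads6, 72.02% and 74.2% in Osmads32, 89.7% and 88.7% in rep1, and 81.3% and 70.3% in wild type. 4CL5 made up 31.8% and 32.9% in Osmads6, 9.47% and 7.94% in Osmads32, 1.08% and 1.29% in rep1, and 4.98% and 6.61% in wild type. In the Osmads6 runs 4CL3 was thus only 1.51 and 1.42 times 4CL5, against 16.3 and 10.6 times in the wild type runs and 83.3 and 68.9 times in the rep1 runs.

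**Figure D2:**
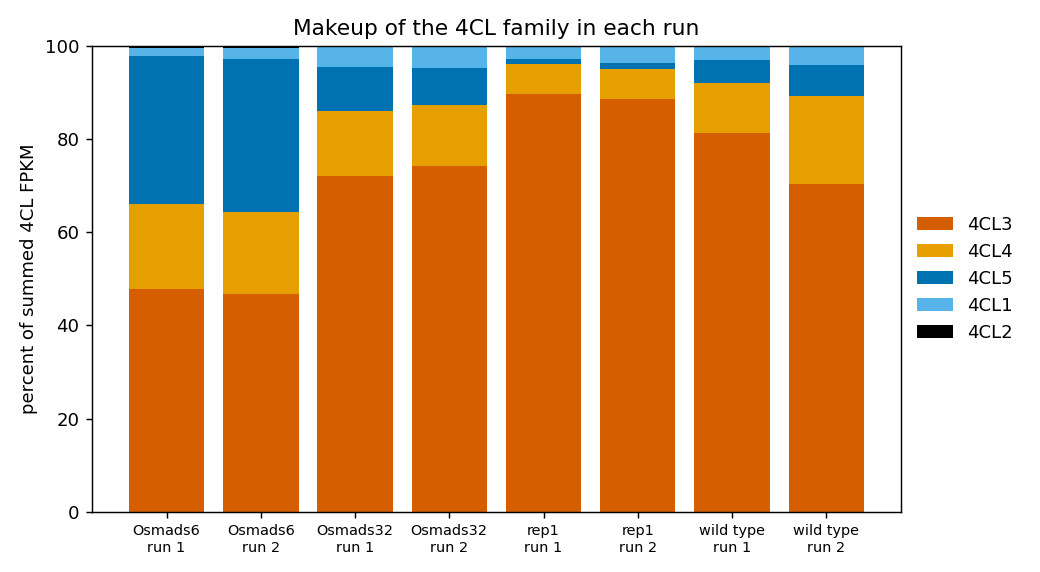
Share of each isoform in the summed FPKM of the 5 4CL genes (percent, stacked bars from 0), for both runs of each genotype. 4CL5 takes 31.8% and 32.9% in the Osmads6 runs and 1.08% and 1.29% in the rep1 runs, and 4CL2 is too low to be seen in most bars.

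CAD2 (LOC_Os02g09490, chromosome 2), the GOLD HULL AND INTERNODE2 gene whose loss discolours rice hulls, stood at 39.8 and 49.2 FPKM in the library labelled Osmads6 and at 138 and 139 FPKM in that labelled Osmads32. It stood at 322 and 320.5 FPKM in the library labelled rep1, against 132 and 90.3 FPKM in that labelled wild type. CAD2 was 2.88-fold higher in rep1, 1.25-fold higher in Osmads32 and 2.50-fold lower in Osmads6 than in wild type. The proportion of the first to the last enzyme varied less than either level: PAL1 was 21.8 and 18.0 times CAD2 in Osmads6, 13.4 and 14.0 times in Osmads32, 17.4 and 17.0 times in rep1, and 12.6 and 16.3 times in wild type.

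Members were then counted as past 2-fold on the log2((FPKM + 1)/(FPKM + 1)) scale of run means, a scale that understates the differences of low genes. All 3 mutant libraries share the library labelled wild type. Of the 8 members, 4 were lower in the library labelled Osmads6 than in wild type, where 7.47% of the 20675 genes averaging 1 FPKM or more were. They are C4H, 4CL1, 4CL3 and CAD2. One member, 4CL5, was higher, where 7.7% of all genes were. The median log2 ratio was -1.03 over the 8 and -1.23 over the 7 past 1 FPKM, and that of all genes was -0.01.

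Of the 8 members, 4 were higher in the library labelled rep1 than in wild type, where 5.13% of all genes were. They are PAL1, 4CL1, 4CL3 and CAD2. None was lower, where 8.78% of all genes were. The median log2 ratio was 1.21 over the 8 and 1.52 over the 7 past 1 FPKM, and that of all genes was -0.15. Runs of rep1 and wild type were apart in 7 of the 7 members past 1 FPKM, and in 63.9% of all genes. In the library labelled Osmads32 no member passed 2-fold in either direction, where 1.81% of all genes were higher and 3.34% lower. The median of the 8 members was 0.23 there, and 0.49 without wild type run 1. It was 0.28 over the 7 past 1 FPKM, and that of all genes was -0.03. Runs of Osmads32 and wild type did not overlap in 5 of the 7 members past 1 FPKM, and in 51.4% of all genes.

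**Figure D3:**
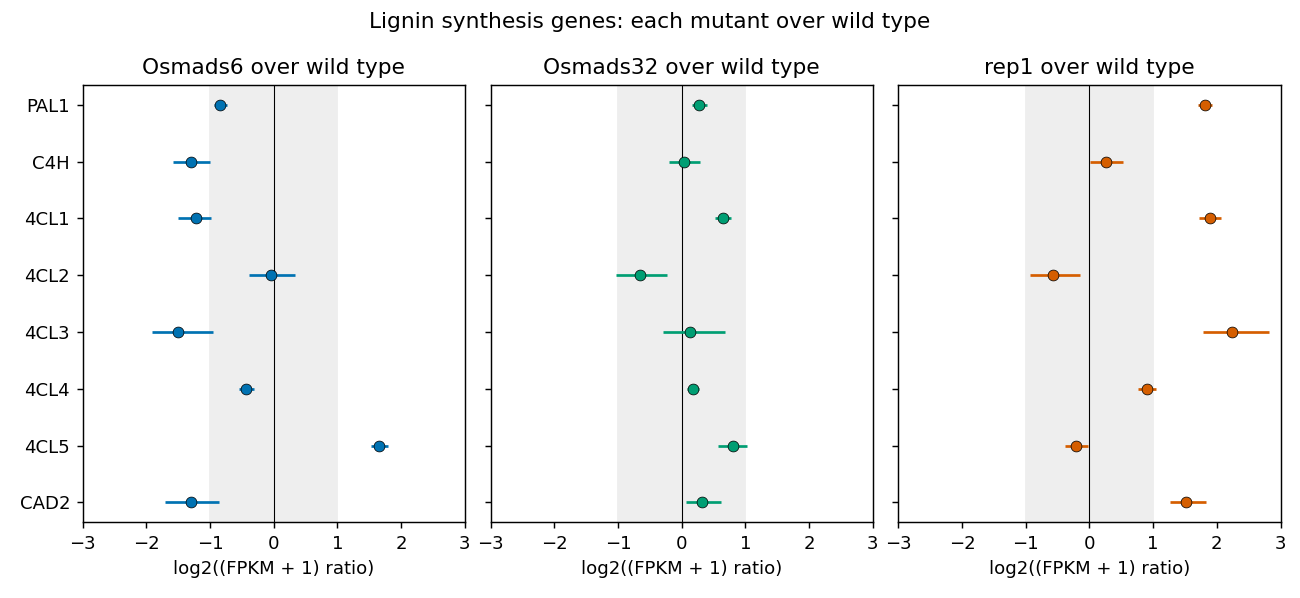
Difference of each member between a mutant library and the library labelled wild type, as log2 of the (FPKM + 1) ratio of run means (dots); lines span the 4 pairings of single runs and the grey band is less than 2-fold. In Osmads6 4 dots lie below the band and 4CL5 above it, in Osmads32 none lies outside it, and in rep1 4 lie above it.

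Ratios between mutant libraries do not use the library labelled wild type. In Osmads6, 5 of 8 members were at least 2-fold lower than in Osmads32, where 5.98% of all genes were, and none was higher, where 7.61% were. The 5 are the 4 that were lower than wild type, with PAL1 besides. PAL1 was 2.17-fold lower, and the widest differences were those of 4CL1, 4.49-fold lower, and 4CL3, 3.13-fold lower. The median was -1.23 over the 8 and -1.34 over the 7 past 1 FPKM, against 0.03 over all genes. Runs were apart in 7 of the 7 members past 1 FPKM and in 74% of all genes.

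In rep1, 6 members were at least 2-fold higher than in Osmads6, where 10.7% of all genes were, and 4CL5 was lower, 3.84-fold, where 16.6% were. 4CL3 was 13.5-fold higher, 4CL1 11.1-fold, PAL1 6.29-fold and CAD2 7.22-fold. The median was 2.11 over the 8 and 2.65 over the 7 past 1 FPKM, against -0.14 over all genes. Runs were apart in 7 of the 7 members past 1 FPKM and in 81% of all genes. In rep1 against Osmads32, 4 members were higher, where 6.47% of all genes were, and 1 was lower, where 9.62% were. The 4 are PAL1 (2.90-fold), 4CL1 (2.47-fold), 4CL3 (4.31-fold) and CAD2 (2.31-fold). The lower member was 4CL5, with a log2 ratio of -1.01, and it fell short of 2-fold without Osmads32 run 1 or without rep1 run 1. The median was 0.96 over the 8 and 1.20 over the 7 past 1 FPKM, against -0.10 over all genes.

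The other loci of the pathway were split into 2 lists only by whether a RefSeq symbol could be matched. The lists differed in the library labelled rep1, and the split itself has no meaning for the pathway. Of 32 further loci, 11 could be matched to a RefSeq symbol, and 10 of these reached a mean of 1 FPKM. The 21 that could not be matched are given as counts only, since their enzymes could not be checked, and 13 of them reached 1 FPKM. Of the 13, 8 were at least 2-fold higher in rep1 than in wild type and 0 were lower, where 5.13% and 8.78% of all genes were. Their median log2 ratio was 1.31 (1.01 over all 21), beside 1.52 for the 7 members past 1 FPKM and 1.21 for all 8. That of all genes was -0.15. In rep1, 8 of the 13 were higher and 2 lower than in Osmads6 (median 1.96, all genes -0.14), where 10.7% and 16.6% of all genes were. Against Osmads32, 7 were higher and 1 lower in rep1 (median 1.23, all genes -0.10), where 6.47% and 9.62% of all genes were. In Osmads6, 2 of the 13 were higher and 5 lower than in wild type (median -0.43, all genes -0.01), where 7.7% and 7.47% of all genes were. Against Osmads32, 1 was higher and 4 lower in Osmads6 (median -0.64, all genes 0.03), where 7.61% and 5.98% of all genes were. In Osmads32, 2 were higher and 1 lower than in wild type (median 0.21, all genes -0.03), where 1.81% and 3.34% of all genes were.

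Among the matched loci, directions were mixed. Of the 10, 3 were at least 2-fold higher in the library labelled rep1 than in wild type and 2 were lower, where 5.13% and 8.78% of all genes were. Their median log2 ratio was -0.26, near the -0.15 of all genes. HCT1 (LOC_Os04g42250), a hydroxycinnamoyl transferase gene, stood at 182 and 165 FPKM in rep1, against 53.7 and 38.9 FPKM in wild type. ZB8 (LOC_Os02g41680), a further PAL gene, stood at 115 and 100.4 FPKM in rep1, against 40.7 and 31.3 FPKM in wild type. HCT2 (LOC_Os02g39850), named outside the rule after its values were seen, was the remaining higher gene, 2.34-fold.

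The lower genes in rep1 included a relative of CAD2. CAD3 (LOC_Os10g29470) stood at 1.58 and 1.99 FPKM in rep1, against 11.9 and 11.1 FPKM in wild type, while CAD2 was 2.88-fold higher there. COA26 (LOC_Os08g38920), also named after its values were seen, stood at 0.856 and 0.201 FPKM in rep1, against 3.01 and 1.94 FPKM in wild type. CAD7 (LOC_Os04g52280) was 1.57-fold lower. Members of the CAD family thus stood on both sides of wild type in the library labelled rep1.

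Of the 10, 1 was lower by 2-fold or more in the library labelled Osmads6 than in wild type and none was higher. Of all genes, 7.47% were lower and 7.7% higher. The median of the 10 was -0.48, against -0.01 over all genes. The lower gene was CAD6 (LOC_Os04g15920), at 1.97 and 1.79 FPKM in Osmads6, against 6.52 and 3.43 FPKM in wild type. ROMT-15 (LOC_Os08g38900), a methyltransferase gene of the caffeoyl-CoA type, stood at 214 and 258 FPKM in Osmads6, against 389.9 and 361 FPKM in wild type. The highest pair of log2 ratios were those of ZB8, 0.76, and CAD3, 0.26. PAL genes therefore differed in direction in this library, with PAL1 1.79-fold lower and ZB8 1.71-fold higher.

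For Osmads32 against wild type, ZB8 was the 1 of 10 pathway genes past 2-fold, where 1.81% of all genes were higher and 3.34% lower. It stood at 92.7 and 93.2 FPKM in Osmads32, against 40.7 and 31.3 FPKM in wild type. The median of the 10 was 0.19, against -0.03 over all genes. HCT2 had the next log2 ratio, 0.83, and the lowest were CAD3, -0.80, and CAD1 (LOC_Os10g11810), -0.53. Between mutant libraries, 1 of the 10 was higher and 2 were lower in Osmads6 than in Osmads32, where 7.61% and 5.98% of all genes were. CAD3 was 2.25-fold higher, CAD6 4.94-fold lower and ROMT-17 (LOC_Os08g38910) 2.03-fold lower. CAD1 was level, with a log2 ratio of 0.02. In rep1, 3 were higher and 1 lower than in Osmads6, where 10.7% and 16.6% of all genes were. Against Osmads32, 1 was higher and 3 were lower in rep1, where 6.47% and 9.62% of all genes were. HCT1 was the highest both times, 5.17-fold above Osmads6 and 4.62-fold above Osmads32. ROMT-15 had the next log2 ratio, 1.54 over Osmads6 and 0.55 over Osmads32. CAD3 was the lowest both times, with log2 ratios of -2.42 and -1.37. Next among those with a mean of at least 5 FPKM were CAD7 over Osmads6, at -0.24, and CAD6 over Osmads32, at -1.07; COA26, below that mean, was at -0.36 and -1.15.

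**Figure D4:**
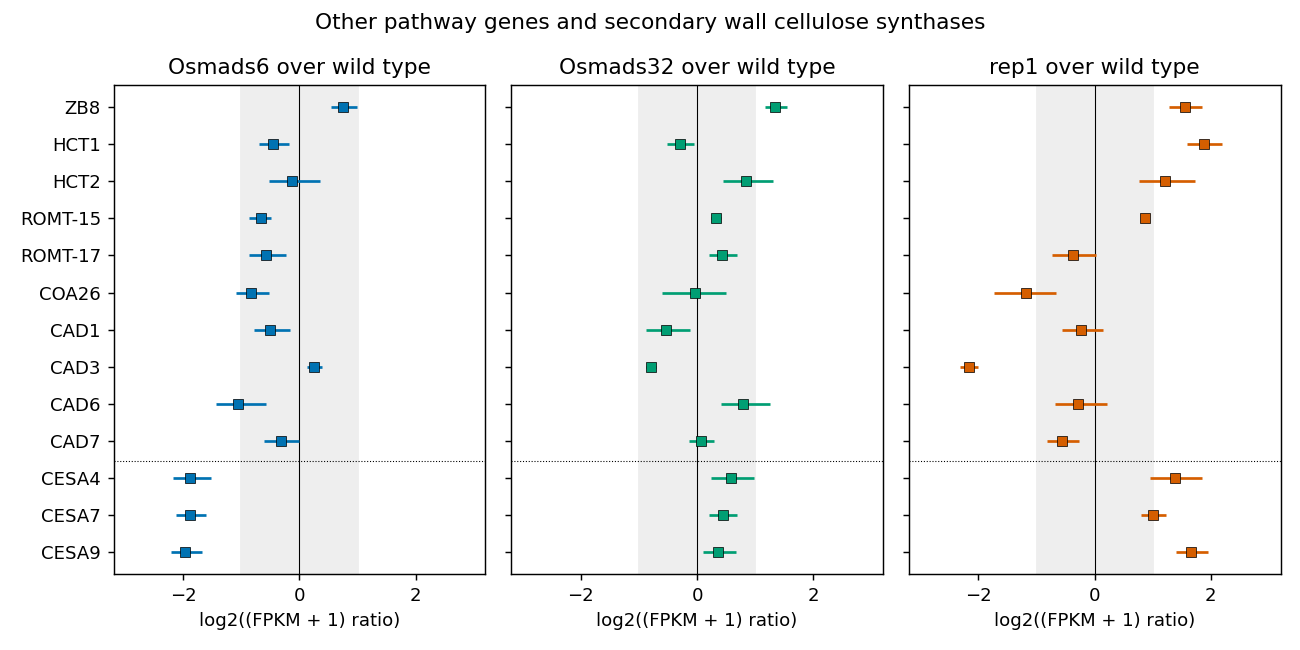
Difference of 10 other pathway genes (above the dotted line) and of 3 secondary wall cellulose synthase genes (below it) between each mutant library and the library labelled wild type, as log2 of the (FPKM + 1) ratio; lines span the 4 pairings of single runs and the grey band is less than 2-fold. The cellulose synthase genes lie on 1 side of the band in Osmads6 and on the other in rep1. The pathway genes shown are the matched ones alone, and they spread over both sides in rep1.

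The secondary wall cellulose synthase genes CESA4, CESA7 and CESA9, which make the cellulose of the walls that lignin fills, had the same order of genotypes as the 6 members. Their summed level was 204.6 and 204.7 FPKM in the library labelled Osmads6, 1056 and 1141 FPKM in that labelled Osmads32, 1879 and 2092 FPKM in that labelled rep1, and 911 and 631 FPKM in that labelled wild type. All 3 were past 2-fold lower in Osmads6 and past 2-fold higher in rep1 than in wild type, CESA7 only just in rep1, at 2.01-fold. Of all genes, 7.47% were lower in Osmads6 and 5.13% higher in rep1.

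Markers of other organs also moved with the genotypes. Of 5 anther and tapetum markers, 2 reached 1 FPKM in the Osmads6 runs, and RTS was at 0 in both. TDR ran the other way, at 4.07 and 4.92 FPKM in Osmads6, 0.838 and 1.21 FPKM in Osmads32, 0.890 and 0.902 FPKM in rep1, and 1.16 and 1.01 FPKM in wild type. The summed level of the 5 was 7.76 and 7.24 FPKM in Osmads6, 169 and 199 FPKM in Osmads32, 289 and 284 FPKM in rep1, and 229 and 219.7 FPKM in wild type. Of 3 lodicule and stamen markers all reached 1 FPKM in every run, with summed levels of 52.7 and 48.1 FPKM in Osmads6, 137 and 131 FPKM in Osmads32, 183 and 158 FPKM in rep1, and 94.5 and 69.98 FPKM in wild type. This is the order of genotypes of the 6 members.

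The pair of green tissue markers, both above 1 FPKM in every run, summed to 265 and 304 FPKM in Osmads6, 1054.5 and 1117 FPKM in Osmads32, 1907 and 1892 FPKM in rep1, and 2308 and 1706 FPKM in wild type. Of 3 carpel and ovule markers, DL alone reached 1 FPKM in the Osmads6 and wild type runs. OsMADS13 and OsMADS58, without DL, reached it in the rep1 runs, and all 3 in the Osmads32 runs. The 3 summed to 22.1 and 17.8 FPKM in Osmads6 and 77.1 and 83.2 FPKM in Osmads32. In rep1 they summed to 12.5 and 13.0 FPKM, and in wild type to 25.3 and 14.6 FPKM. OsMADS13 was at 0 in 1 Osmads6 run. The rep1 sum hid opposite directions. DL stood at 0.617 and 0.381 FPKM in rep1, against 24.5 and 13.6 FPKM in wild type. OsMADS13 stood at 10.2 and 11.5 FPKM in rep1, against 0.423 and 0.691 FPKM in wild type. OsMADS58 stood at 1.73 and 1.13 FPKM in rep1, against 0.421 and 0.268 FPKM in wild type. The lemma and palea markers summed to 739 and 722 FPKM in Osmads6, 756 and 818 FPKM in Osmads32, 1139 and 1255 FPKM in rep1, and 603 and 964 FPKM in wild type. The high rep1 sum was that of OsMADS6, at 826 and 858 FPKM in rep1, against 12.5 and 14.4 FPKM in wild type. The other 3 were lower in rep1: OsMADS1 stood at 249 and 337 FPKM there, against 440 and 830 FPKM in wild type, OsMADS14 at 39.2 and 35.7 FPKM in rep1, against 62.9 and 62.1 FPKM in wild type, and OsMADS15 at 25.1 FPKM in both rep1 runs, against 87.6 and 57.6 FPKM in wild type. Low levels of the 6 members that shared an order thus stood beside low summed levels of anther, lodicule and green tissue markers in the library labelled Osmads6. Exceptions were 4CL5, 3.28-fold higher there than in wild type, TDR, also higher, and OsMADS2, whose runs overlapped those of wild type. Summed levels of the carpel and ovule markers and of the lemma and palea markers were not low in Osmads6 and lay between the wild type runs. The part of these markers in the result was not tested.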

How the data were processed

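RNA was extracted from rice paleas and messenger RNA was enriched, per the labels' protocols. The authors deposited 1 table of FPKM values, 2 columns per genotype; the submitters' processing notes name the build IRGSP 1.0, and no source used here names the aligner, counter or annotation. Columns were averaged per genotype. Whole reads were recovered from the FPKM steps within 0.02 reads for 44710 genes, up to a factor common to a gene's runs (3 abundant genes gave none and held 2.34% to 4.32% of a run's FPKM); the recovery was tested on simulated data.

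Differences are log2((FPKM + 1)/(FPKM + 1)), counted past 2-fold and set beside the 20675 genes averaging at least 1 FPKM. Values were computed with Python 3.11.15, numpy 2.4.6 and pandas 2.3.3.

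Of the 9 genes chosen, 1 is not reported here. The members and lists were chosen with earlier results of these data known. Locus IDs were paired with symbols from rice nomenclature and checked by chromosome and order against RefSeq symbols of assembly ASM3414082v1: 7 of 8 members passed and C4H had no symbol there; of 32 further pathway loci the 21 not matched are given as counts, apart from the 11 matched, and not named, and their counts were added after their values were seen. The check can miss a wrong pair of neighbours. OsMADS32 and REP1 were not matched and were kept as the targeted genes. Named pathway genes are the highest and lowest 2 per comparison with a mean of at least 5 FPKM. Pearson correlations over the 4 genotypes were computed and are not given, as 4 samples are too few. PAL, 4CL, CAD and methyltransferase paralogs can share reads, so their values are uncertain to that extent. Alternatives were other pseudocounts, folds, filters and scalings, each run left out, and the wild type and Osmads6 labels exchanged.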

Additional observations from a re-analysis of the deposited data

How the results depend on the processing

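No paired analysis was possible because GEO lists 1 sample per genotype and no test was made. Of the counts of members past 2-fold, those of 4 lower in Osmads6 and 4 higher in rep1 against wild type, 5 lower in Osmads6 against Osmads32 and 6 higher in rep1 against Osmads6 were within 1.5 times of these values under other pseudocounts, scalings, the filter at 5 FPKM and each run left out. At 4-fold on the same log2((FPKM + 1)/(FPKM + 1)) scale, no member passed for Osmads6 against wild type or against Osmads32 (0 higher and 0 lower). PAL1, 4CL1, 4CL3 and CAD2 passed as higher in rep1 than in Osmads6, with log2 ratios of 2.65, 3.12, 3.73 and 2.82. In rep1, 1 was higher than in wild type, 0 were lower than in Osmads6, and 1 was higher and 0 lower than in Osmads32. 4CL1 fell short on this scale, at -1.87 for Osmads6 against Osmads32 and 1.90 for rep1 against wild type. Its plain FPKM ratios there were 4.49-fold lower and 4.03-fold higher. At 1.5-fold, 2 members were higher and 1 lower in Osmads32 than in wild type, and 2 were higher in Osmads6 than in Osmads32. With a pseudocount of 0.1 or none, 4CL2 passed 2-fold, which gave 1 lower in Osmads32 and 1 lower in rep1 than in wild type, 1 higher in Osmads6 than in Osmads32 and 2 lower in rep1 than in Osmads6. Median-ratio scaling left 0 lower in rep1 than in Osmads32. With single runs left out, the counts ranged from 3 to 4 lower in Osmads6 against wild type and from 0 to 1 lower in rep1 against Osmads32, and stayed at 1 higher in Osmads6, 0 higher and 0 lower in Osmads32 and 4 higher and 0 lower in rep1 against wild type, at 0 higher and 5 lower in Osmads6 against Osmads32, at 6 higher and 1 lower in rep1 against Osmads6, and at 4 higher in rep1 against Osmads32.

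With the wild type and Osmads6 labels exchanged, Osmads6 against wild type turned by construction, to 4 members higher and 1 lower. The median was then 1.03, with log2 ratios of 1.30 for C4H, 1.23 for 4CL1, 1.501 for 4CL3, -1.65 for 4CL5 and 1.30 for CAD2. Osmads32 against wild type then had 5 members higher, rep1 against wild type had 1 lower, Osmads6 against Osmads32 had 0 lower and rep1 against Osmads6 had 0 lower. Under the exchange rep1 against wild type uses the columns labelled Osmads6, where PAL1, 4CL1, 4CL3 and CAD2 were lower still. Their direction was therefore fixed in advance, and the exchange does not check it. All changes under the exchange come from the reassignment of the columns. Depth limits 4CL2 alone among the members, most of all in Osmads32 and rep1.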

Other observations

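The profile of PAL1, the member with the highest mean, was set beside all 13876 genes averaging at least 5 FPKM, as the root mean square difference of log2(FPKM + 1) over the 8 runs after centring each gene. CAD2 differed from it by 0.24 and ranked 42 among them, 4CL1 by 0.30 (rank 94), 4CL3 by 0.42 (rank 312), 4CL4 by 0.49 (rank 456) and C4H by 0.60 (rank 836). CESA9 differed by 0.49, CESA7 by 0.52 and CESA4 by 0.52. 4CL5 differed by 1.61 and ranked 12787. The closest gene of the table was LOC_Os01g46120, which differed by 0.09. It stood at 1.33 and 1.52 FPKM in the library labelled Osmads6, 3.90 and 4.16 FPKM in that labelled Osmads32, 15.3 and 11.8 FPKM in that labelled rep1, and 3.71 and 3.21 FPKM in that labelled wild type. The next was LOC_Os01g65510, which differed by 0.15. Both are low genes, whose differences the added 1 FPKM narrows, while those of PAL1 are hardly changed. Their closeness to PAL1 therefore depends in part on that addition. The 8 runs were taken as coming from 4 samples, and the measure is a description.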
